A study of Mus musculus with 8 samples.

Results

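Erythroid and megakaryocyte transcription factors are the subject here, namely Gata1, Gata2, Klf1, Tal1, Lmo2, Ldb1, Zfpm1, Nfe2, Myb and Fli1. They were taken by gene name from the count files, as 10 of the 19879 gene names measured. Each of the 10 had a row in all 8 files and passed the filter on low counts.

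Single progenitor cells of mouse bone marrow were profiled by CEL-Seq2, a method that tags transcripts near their 3′ end with a well barcode and a molecular identifier, so that transcripts rather than reads are counted. The study compared wild type mice with mice labelled Mof -/+, heterozygous for Mof (Kat8), a histone H4 lysine acetyltransferase. Per genotype there were 2 libraries named HSC and 2 named plate2, so 8 libraries in 4 groups. The design text lists sort gates for haematopoietic stem cells and for several progenitors of red cells, megakaryocytes and granulocytes. No label says which gate a plate2 well came from, and strain, age, treatment and the kind of Mof allele are not stated. The labels do not tie libraries to animals, and each p value below therefore reflects only how libraries of a group vary, which may be technical.

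These factors work in overlapping complexes. GATA1 and GATA2 are zinc finger proteins that bind the same DNA letters. GATA2 acts in stem cells and early progenitors, and GATA1 takes over many of its sites as erythroid cells and megakaryocytes form. TAL1 is a helix-loop-helix protein that binds an E-box and is joined to GATA factors by LMO2, a bridge without DNA contact of its own, and LDB1, which can link 2 such complexes and loop DNA. ZFPM1 (FOG-1) is a cofactor that binds GATA1 directly. KLF1 binds CACCC boxes and switches on globin, haem and membrane genes of red cells. NFE2 works in megakaryocytes and in globin control, MYB maintains dividing progenitors, and FLI1 is an ETS factor of megakaryocytes and stem cells that opposes KLF1.

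The promoters of Gata1, Gata2, Klf1 and Tal1 are shown because the results on single wells turn on the first 3, and because Tal1, a partner of GATA1, holds a GATA match. The factors bind such letters themselves. Sequences are 5′ to 3′ on the gene's strand, upstream of the RefSeq start in the GRCm38.p6 table. Capitals mark a CACCC box (CCNCNCCC, on either strand) in Gata1 and Gata2 and a GATA match (the letters GATA between A or T before and A or G after, on either strand) in Klf1 and Tal1.
Gata1, chrX:7967911-7968160, minus strand: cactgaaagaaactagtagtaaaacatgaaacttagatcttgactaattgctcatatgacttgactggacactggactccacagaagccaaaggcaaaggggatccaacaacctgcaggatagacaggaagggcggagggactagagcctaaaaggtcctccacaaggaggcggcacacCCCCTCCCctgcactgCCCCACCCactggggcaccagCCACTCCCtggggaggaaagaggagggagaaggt
Gata2, chr6:88193641-88193890, plus strand: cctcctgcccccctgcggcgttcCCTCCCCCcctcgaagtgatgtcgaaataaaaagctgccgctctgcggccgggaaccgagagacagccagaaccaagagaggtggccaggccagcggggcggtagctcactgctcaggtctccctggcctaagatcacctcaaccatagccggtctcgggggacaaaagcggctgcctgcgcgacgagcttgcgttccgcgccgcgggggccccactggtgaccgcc
Klf1, chr8:84901732-84901927, plus strand: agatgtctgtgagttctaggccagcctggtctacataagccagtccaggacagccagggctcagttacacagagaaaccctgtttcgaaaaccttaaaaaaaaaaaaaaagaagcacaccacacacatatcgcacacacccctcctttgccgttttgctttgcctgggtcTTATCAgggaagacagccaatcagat
Tal1, chr4:115056176-115056425, plus strand: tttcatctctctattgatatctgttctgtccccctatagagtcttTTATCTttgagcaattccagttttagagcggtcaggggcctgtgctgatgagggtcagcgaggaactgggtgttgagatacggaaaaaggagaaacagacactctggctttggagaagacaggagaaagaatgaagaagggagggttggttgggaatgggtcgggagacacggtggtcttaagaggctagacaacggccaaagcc
The Gata1 stretch held 3 CACCC boxes and no GATA match. The Klf1 stretch is shown only up to the start of the annotated gene, 54 bases short of the RefSeq start. The Klf1 match lies 80 bases upstream of the RefSeq start, and that of Tal1 lies 205 bases upstream. The table matched 7 of the 10 genes, with 11 start sites in all. For Gata2 and Tal1 the stretch shown is that of start site 1. Start site 2 of Gata2, not shown, held 6 CACCC boxes. That of Tal1, also not shown, held 4 CACCC boxes and no GATA match. Lmo2, Nfe2 and Fli1 are named only. A GATA match stood in 3 of the 11 windows of 250 bases, one each of Klf1, Tal1 and Ldb1. Of 32851 promoters in the table, 26.5% held a GATA match, 45.9% a CACCC box and 66.2% an E-box (CANNTG). Since counting was near the 3′ end, the values below do not tell start sites apart.

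A well was kept with at least 1000 transcripts, which left 232 wells in HSC libraries and 204 in plate2 libraries. HSC libraries held 99253 to 244109 transcripts and plate2 libraries 424490 to 733925. Median depth was 1566.5 to 2977 transcripts per well in HSC libraries and 8075 to 12515 in plate2 libraries. For the 2 wild type plate2 libraries the titles and the deposited tables carry crossed library numbers, so which is 1 and which is 2 is uncertain. Both are wild type plate2, so group values do not depend on it. Each file lists 192 barcodes, of which a library used 96. The other 96 held 2.29% to 13.6% of transcripts, which tracked the wells of the same barcode in other libraries of the set, at 1.38% to 6.29% of their transcripts. In 3 plate2 libraries 11, 4 and 3 kept wells, and in 1 HSC library 1, were on such barcodes, so results on single wells are also given without them. Kat8 itself was too sparse to check the genotype labels, with 1 to 12 transcripts per library. Levels are in CPM, the transcripts of a gene scaled to a common total of transcripts per library.

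Stem cell markers checked the HSC label. The summed level of 10 stem cell genes was 3826 to 5154 CPM in HSC libraries and 605 to 1138 CPM in plate2 libraries. Markers of red cell progenitors went the other way, with 12 genes summing to 970 to 2429 CPM in HSC and 3323 to 4215 CPM in plate2 libraries. Clusters of wells were drawn without the 10 factors. One cluster of 34 wells was called erythroid progenitor-like, from Car1, Car2, Ermap, Rhd, Blvrb, Slc38a5 and Hebp1 among its leading genes. It held 26 plate2 wells and 8 wells of HSC libraries. Those 8 lay in wild type HSC library 1 (1 well), wild type HSC library 2 (3 wells) and heterozygous HSC library 1 (4 wells), and heterozygous HSC library 2 had none.

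Gata1 and Klf1 did not pass the test between HSC and plate2 libraries in either genotype, while Ldb1 and Myb were higher and Nfe2 was lower in plate2 libraries of both genotypes. Gata2, Lmo2 and Fli1 rose from HSC to plate2 in wild type and did not pass in heterozygotes, and the test of that difference between genotypes did not pass for any of the 3. In a sum over wells, fewer cells of a type and less RNA per cell cannot be told apart. The sort, the depth per well and any difference in handling change together with the set of libraries. Their parts in a difference between HSC and plate2 libraries cannot be told apart either. The plot of levels by library shows all 10 genes.

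**Figure D1:**
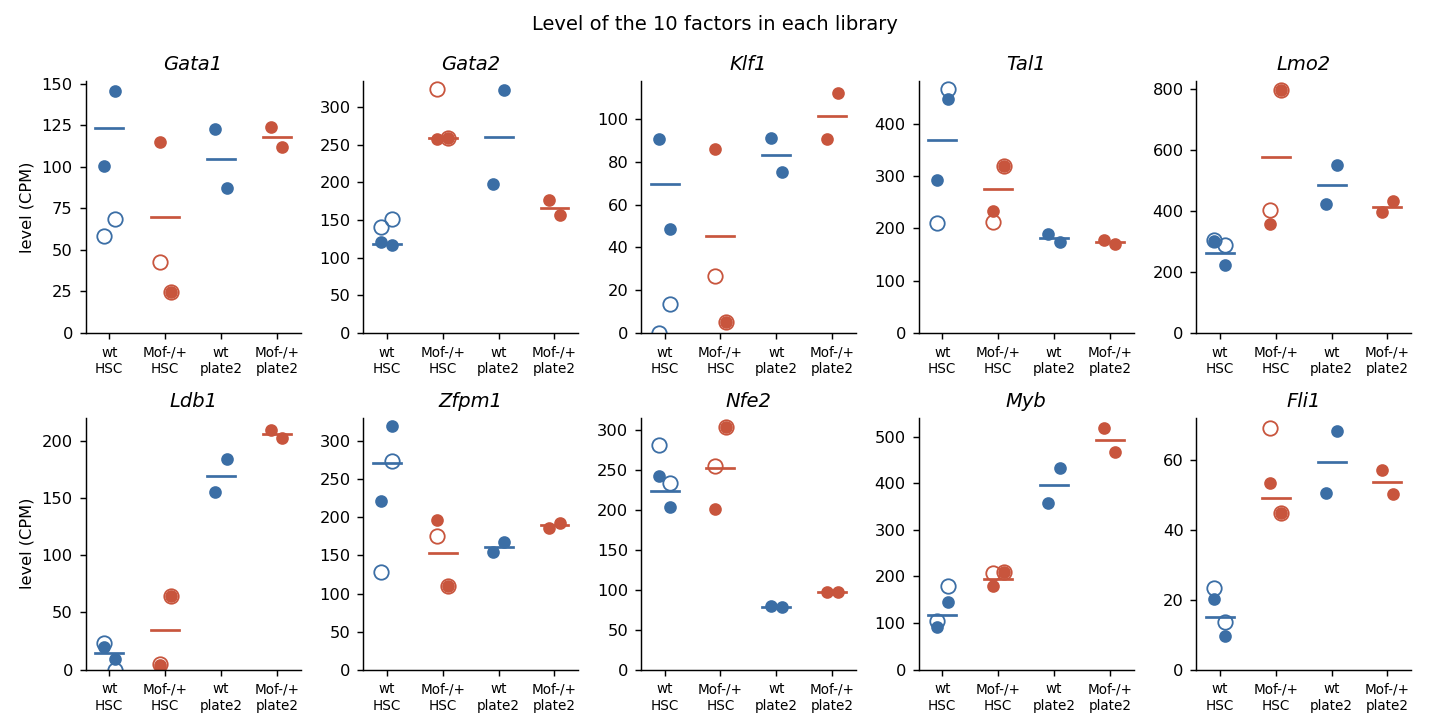
Level of each factor in CPM (vertical axes, each starting at 0) by group of libraries. Filled points are the 2 libraries of a group over all kept wells, lines are their means, and open circles are HSC libraries without the 8 erythroid progenitor-like wells. Ldb1 and Myb are higher in all 4 plate2 libraries than in all 4 HSC libraries. The wells were removed from HSC libraries only, so the open circles are not a like-for-like comparison with the plate2 points.

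Among the binding factors of the GATA pair, Gata1 had 101 and 146 CPM in wild type HSC libraries 1 and 2. Heterozygous HSC libraries had 115 and 24.9 CPM. Plate2 libraries had 123 and 87.2 CPM in wild type and 124 and 112 CPM in heterozygotes. Only heterozygous HSC library 2, the one without erythroid progenitor-like wells, stood low, and the groups overlapped. The log2 fold change from HSC to plate2 was 0.04 ± 0.46 (SE) in wild type and 0.90 ± 0.42 in heterozygotes, with edgeR adjusted p values of 0.962 and 0.137.

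Gata2 had 121 and 116 CPM in wild type HSC libraries and 258 and 259 CPM in heterozygous ones. Plate2 libraries had 198 and 323 CPM in wild type and 176 and 156 CPM in heterozygotes. Both wild type plate2 libraries lay above both wild type HSC libraries, and in heterozygotes the order was the opposite. Gata2 rose from HSC to plate2 in wild type, by 1.37 ± 0.37 on the log2 scale (edgeR adjusted p = 0.0142), and its change in heterozygotes was -0.44 ± 0.30 (edgeR adjusted p = 0.308). The pass in wild type was lost in some fits that left out a library.

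Klf1, the red cell activator, had 90.7 and 48.5 CPM in wild type HSC libraries and 86.0 and 4.97 CPM in heterozygous ones. In plate2 libraries it had 91.3 and 75.4 CPM in wild type and 90.5 and 112 CPM in heterozygotes. The 4.97 CPM is a single transcript in the 68 wells of heterozygous HSC library 2. Its changes from HSC to plate2 were 0.54 ± 0.59 in wild type and 1.26 ± 0.50 in heterozygotes on the log2 scale, with edgeR adjusted p values of 0.558 and 0.0764.

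In HSC libraries most Gata1 and Klf1 came from few wells. The 8 erythroid progenitor-like wells, of 3171 to 19897 transcripts each, held 35 of 58 Gata1 transcripts (60.3%) and 29 of 36 Klf1 transcripts (80.6%). They held 15.4% of all transcripts of these libraries, 2.16% of Gata2 and 0 of 25 Fli1 transcripts. Each of the 8 wells had Gata1, with 1 to 7 transcripts, and 6 had Klf1, with 1 to 9. For Zfpm1 the share was 31.2% and for Tal1 20.4%.

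Without those 8 wells, Gata1 stood at 58.4 and 68.7 CPM in wild type HSC libraries and at 42.5 and 24.9 CPM in heterozygous ones. Klf1 stood at 0 and 13.7 CPM in wild type and at 26.6 and 4.97 CPM in heterozygotes. The wells were set apart by erythroid genes and removed from one side only, so the direction of a comparison with all plate2 wells is partly set by the removal. Removing such wells from both sets was added after the values were seen, in clusters made here rather than taken from the authors.

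Without the erythroid progenitor-like wells of both sets, Gata1 had 93.0 and 53.6 CPM in wild type plate2 libraries, which overlapped the wild type HSC libraries. Its log2 change there was 0.63 ± 0.52 (edgeR adjusted p = 0.433). In heterozygous plate2 libraries Gata1 had 95.7 and 87.1 CPM, above both HSC libraries, a rise of 1.67 ± 0.46 on the log2 scale (edgeR adjusted p = 0.0162). Klf1 had 37.5 and 22.1 CPM in wild type plate2 libraries and 55.4 and 57.3 CPM in heterozygous ones. It rose in heterozygotes by 2.06 ± 0.66 (edgeR adjusted p = 0.0327) and did not pass in wild type (edgeR adjusted p = 0.137). With the wells removed from HSC libraries only, also added after the values were seen, the changes of Gata1 were 2.01 ± 0.41 in heterozygotes and 1.10 ± 0.47 in wild type (edgeR adjusted p = 0.000781 and 0.0899). Those of Klf1 had edgeR adjusted p values of 0.00034 and 0.00347, the latter against a single remaining transcript. Both removals left in place cluster 8, described below, whose wells were all from plate2 libraries. After the removal from both sets, cluster 8 held 116 of the 145 Gata1 transcripts left in plate2 libraries. For Klf1 it held 68 of 75, so these rises rest largely on that cluster. The rises also depend on the clustering used to define the class. At Leiden resolution 0.5 the class held 27 wild type and 40 heterozygous plate2 wells, against 9 and 17 here. Removal of that larger class was not tried.

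Of the complex that joins TAL1 to GATA factors, the subunits moved differently. Ldb1, the self-associating subunit, was nearly undetected in HSC libraries, with 2 and 1 transcripts in wild type and 1 and 13 in heterozygotes. That is 20.2 and 9.71 CPM in wild type and 4.10 and 64.7 CPM in heterozygotes. In plate2 libraries it had 155 and 184 CPM in wild type and 210 and 202 CPM in heterozygotes, so no library of one set reached the other. Against 3 transcripts in wild type HSC libraries, the plate2 level was 11.2 times as high, with an exact 95% counting interval of 3.77 to 54.7. Such an interval leaves out the spread between libraries. Ldb1 rose in both genotypes, with an edgeR adjusted p of 0.00166 in wild type and a log2 change of 2.86 ± 0.50 (edgeR adjusted p = 0.000436) in heterozygotes.

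Lmo2, the bridging subunit, had 302 and 223 CPM in wild type HSC libraries, and 422 and 549 CPM in wild type plate2 libraries. In heterozygotes the HSC libraries had 356 and 796 CPM and the plate2 libraries 397 and 431 CPM. The wild type sets did not overlap, and the heterozygous HSC libraries lay on either side of the plate2 libraries. Lmo2 rose in wild type by 1.14 ± 0.37 on the log2 scale (edgeR adjusted p = 0.0345), and in heterozygotes the change was -0.28 ± 0.32 (edgeR adjusted p = 0.572). The pass in wild type was lost in most fits that left out a library.

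Tal1 had 292 and 447 CPM in wild type HSC libraries and 234 and 318 CPM in heterozygous ones. Levels in plate2 libraries were 189 and 174 CPM in wild type and 178 and 170 CPM in heterozygotes. Every HSC library was above every plate2 library, and the log2 changes of -0.77 ± 0.31 and -0.47 ± 0.30 did not pass in wild type or heterozygotes (edgeR adjusted p = 0.0955 and 0.275).

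Zfpm1, the GATA1 cofactor, ranged from 109 to 320 CPM in HSC libraries and from 154 to 193 CPM in plate2 libraries. Its log2 changes of -0.51 ± 0.33 in wild type and 0.49 ± 0.32 in heterozygotes pointed in opposite directions and did not pass (edgeR adjusted p = 0.308 and 0.281). In wild type, without the 8 erythroid progenitor-like HSC wells, its change was 0.05 ± 0.36.

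Nfe2 was the only factor to pass as lower in plate2 libraries. It had 242 and 204 CPM in wild type HSC libraries and 201 and 303 CPM in heterozygous ones. Plate2 levels were 79.0 and 77.7 CPM in wild type and 96.8 and 97.4 CPM in heterozygotes, all below every HSC library. It fell by 1.24 ± 0.35 on the log2 scale in wild type and by 1.17 ± 0.30 in heterozygotes (edgeR adjusted p = 0.0183 and 0.00859). In wild type it did not pass with wells of at least 2000 transcripts (edgeR adjusted p = 0.45), with no filter on low counts (0.0772), or without any 1 of the 4 wild type libraries. In heterozygotes it did not pass without HSC library 2 or without either plate2 library.

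Myb, the progenitor factor, had 90.7 and 146 CPM in wild type HSC libraries and 180 and 209 CPM in heterozygous ones. In plate2 libraries it had 358 and 433 CPM in wild type and 519 and 468 CPM in heterozygotes. No library of one set reached the other. Myb rose by 1.99 ± 0.35 on the log2 scale in wild type and by 1.54 ± 0.29 in heterozygotes (edgeR adjusted p = 0.000644 and 0.00102).

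Fli1, the lowest of the 10 genes in HSC libraries of wild type beside Ldb1, had 2 and 1 transcripts there, or 20.2 and 9.71 CPM. Heterozygous HSC libraries had 53.3 and 44.8 CPM, wild type plate2 libraries 50.4 and 68.3 CPM, and heterozygous plate2 libraries 57.1 and 50.2 CPM. The 2 wild type HSC libraries thus stood below the other 6. In wild type, plate2 was 3.84 times HSC, with an exact 95% counting interval of 1.26 to 19.1 (edgeR adjusted p = 0.0321, and 0.0514 without the 8 erythroid progenitor-like HSC wells). In heterozygotes the log2 change was 0.32 ± 0.41 (edgeR adjusted p = 0.621). The pass of Fli1 in wild type was lost in some fits that left out a library.

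From HSC to plate2, 6 of the 10 factors passed in wild type (5 higher, 1 lower), where 17.8% of all 6690 genes tested passed (9.55% higher, 8.21% lower). In heterozygotes 3 passed (2 higher, 1 lower), where 22.2% of all genes passed (11.9% higher, 10.3% lower). The libraries of the 2 sets did not overlap for 8 of 10 factors in wild type and 6 of 10 in heterozygotes, against 59.6% and 63.5% of all genes. The median log2 change of the 10 was 0.84 in wild type and 0.40 in heterozygotes, against 0.08 and 0.05 over all genes. The count in wild type rests on each of its 4 libraries: leaving out HSC library 1, HSC library 2, plate2 library 1 or plate2 library 2 left 2, 2, 3 and 2 factors. Ldb1 and Myb passed in both genotypes whichever library was left out. Without heterozygous HSC library 1, 5 factors passed in heterozygotes, with Gata1 and Klf1 among them (edgeR adjusted p = 0.00597 and 0.00103). Without the 8 erythroid progenitor-like HSC wells 6 factors passed in wild type and 5 in heterozygotes, where 23.7% and 30.7% of all genes passed. That removal was from HSC libraries only, which partly sets the direction for Gata1 and Klf1. Without all erythroid progenitor-like wells the counts were 6 and 5, where 16.8% and 18.5% of all genes passed. DESeq2 passed 4 factors in wild type (3 higher, 1 lower) and 3 in heterozygotes, where 10.7% and 11.8% of all genes passed. With wells of at least 2000 transcripts 4 passed in wild type (4 higher, 0 lower) and 3 in heterozygotes, where 8.59% and 20.3% of all genes passed. With each well thinned to 1000 transcripts, only 5 of the 10 factors and 972 genes could be tested. Of those 5 factors 1, Myb, passed in each genotype, where 30.6% and 23.3% of the genes tested passed.

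**Figure D2:**
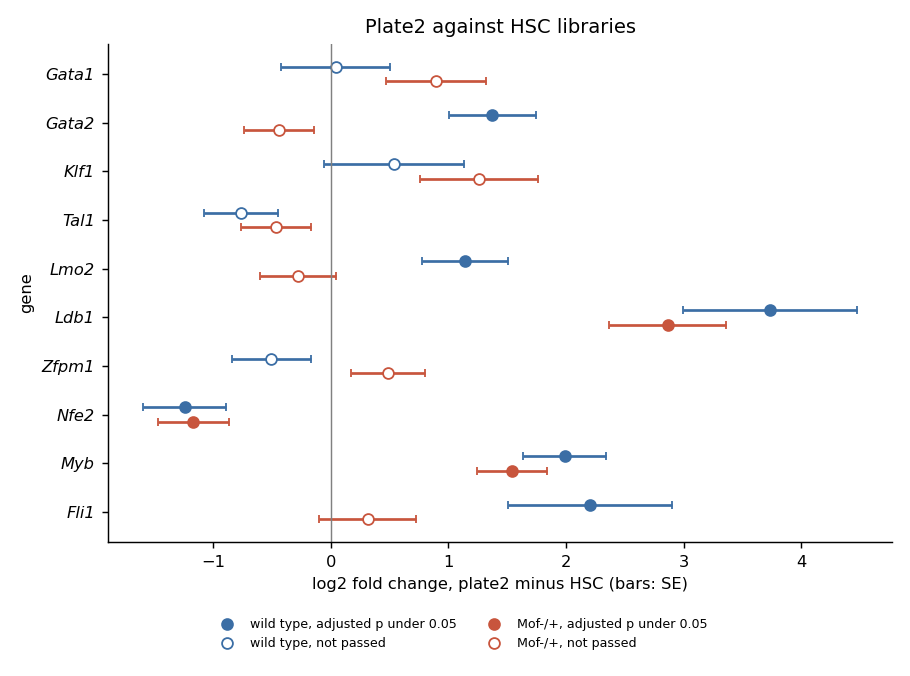
Log2 fold change from HSC to plate2 libraries (horizontal axis) of each factor in wild type (blue) and Mof -/+ (red), with bars of 1 SE. Filled points passed an edgeR adjusted p of 0.05. Ldb1, Nfe2 and Myb passed in both genotypes, and Gata2, Lmo2 and Fli1 in wild type.

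The partners of these factors, a list of 28 further subunits, cofactors and related factors, were read the same way. Of the 25 that were tested, 1 rose and 1 fell in each genotype, against the 17.8% and 22.2% of all genes that passed in wild type and heterozygotes. In wild type these were Chd4, a chromatin remodeller, with a log2 change of 1.37 ± 0.33 (edgeR adjusted p = 0.00711), and Cbfa2t3, a corepressor of the TAL1 complex, with -1.01 ± 0.32 (edgeR adjusted p = 0.0311). In heterozygotes they were Tcf3, a partner of TAL1, with 1.51 ± 0.52 (edgeR adjusted p = 0.0404), and Erg, an ETS factor of stem cells related to Fli1, with -2.08 ± 0.30 (edgeR adjusted p = 7.57e-05). The median log2 change of the tested partners was -0.23 in wild type and -0.30 in heterozygotes, against 0.08 and 0.05 over all genes.

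Known targets of the factors, a list of 36 red cell and megakaryocyte genes of which 26 were tested, moved in both directions. In wild type 2 rose, Car1 and Car2, both carbonic anhydrases of red cell progenitors, and 3 fell, which is 5 of 26, where 17.8% of all genes passed. Car1 rose by 1.97 ± 0.61 and Car2 by 1.41 ± 0.28 on the log2 scale (edgeR adjusted p = 0.0288 and 0.00175). Among those that fell were Itga2b, a platelet integrin (-1.37 ± 0.45), and the alpha globin gene Hba-a1 (-2.53 ± 0.87).

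In heterozygotes 4 targets rose and 4 fell, which is 8 of 26, where 22.2% of all genes passed. Car1 rose by 2.93 ± 0.59, and the water channel gene Aqp1 and the erythropoietin receptor gene Epor were the other red cell genes among those that rose, beside Mt2, a metallothionein. Among those that fell were Cd34, a progenitor surface gene, Pf4, a platelet chemokine, and Hba-a1. For Hba-a1, wild type HSC library 1 stood apart with 9461 CPM, where the other HSC libraries had 562 to 1163 CPM. The summed late erythroid markers were 16090 CPM in that library and 821 to 1745 CPM in the other HSC libraries, and their part in the Hba-a1 values was not tested.

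Across clusters of wells, the factors marked different wells. Clusters are drawn from the same cells, so levels are described without a test. In the erythroid progenitor-like cluster Klf1 stood at 217 CPM, Gata1 at 200 CPM and Zfpm1 at 303 CPM. Gata1 was found in 97.1% of its 34 wells, Zfpm1 in 97.1% and Klf1 in 91.2%. Gata2 was lower there, at 81.8 CPM, and Fli1 was at 15.2 CPM. The median depth of these wells was 25082 transcripts.

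A second cluster with Gata1, number 8, held 43 wells, all from plate2 libraries, and carried no cell type name. Its Gata1 level of 199 CPM was like that of the erythroid progenitor-like wells, with Klf1 at 116 CPM and Gata2 at 402 CPM. It had the highest levels of Ldb1 (305 CPM) and Myb (758 CPM) of the 10 clusters, and Myb was found in all 43 wells. Gata1 was found in 86.0% of wells, Gata2 in 90.7% and Klf1 in 67.4%, at a median of 13340 transcripts.

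Cluster 7, of 57 wells, carried no name and was led by Mmrn1, Angpt1 and Myct1, genes known from stem cells, megakaryocytes and endothelium. It had Gata2 in 91.2% of wells at 326 CPM and Klf1 in 0 of 57 wells, for which the exact 95% interval reaches 6.27%. Gata1 stood at 16.7 CPM. Fli1 at 145 CPM and Lmo2 at 850 CPM were higher there than in any other cluster. In 85 stem cell-like wells, which immune genes such as Cd74 and H2-Aa also led, Gata2 stood at 186 CPM, Lmo2 at 693 CPM and Nfe2 at 312 CPM, and Gata1 at 17.3 CPM. The median depths of these 2 clusters were 9172 and 2674 transcripts. The highest Gata2 level of all clusters, 427 CPM, was in cluster 1, which carried no name. Its 65 wells were all from HSC libraries, at a median of 2533 transcripts, and 49.2% of them had Gata2. Cluster 0, of 56 wells and also without a name or plate2 wells, had Gata2 at 160 CPM, Lmo2 at 347 CPM and Nfe2 at 235 CPM. The stem cell genes Hlf, Ctla2a, Ly6a and Ifitm1 were among its leading genes, 4 against 3 in the stem cell-like cluster. It took no name because the globin genes Hba-a1 and Hbb-bs headed its list, so the stem cell-like name does not cover all wells with stem cell genes.

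Neutrophil progenitor-like wells served as the background for detection, since granulocyte progenitors should lack Klf1. Among 24 such wells, with a median of 14854.5 transcripts, Klf1 was found in 0 (exact 95% interval up to 14.2%), Gata1 in 1 and Gata2 in 6. Lmo2 (380 CPM), Myb (352 CPM) and Fli1 (67.9 CPM) were present in them. The highest Gata1 level, 515 CPM, came from cluster 2, which carried no name. It rests on 20 transcripts in 29 wells of low depth (median 1159 transcripts), most of which lay off the libraries' own barcodes.

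**Figure D3:**
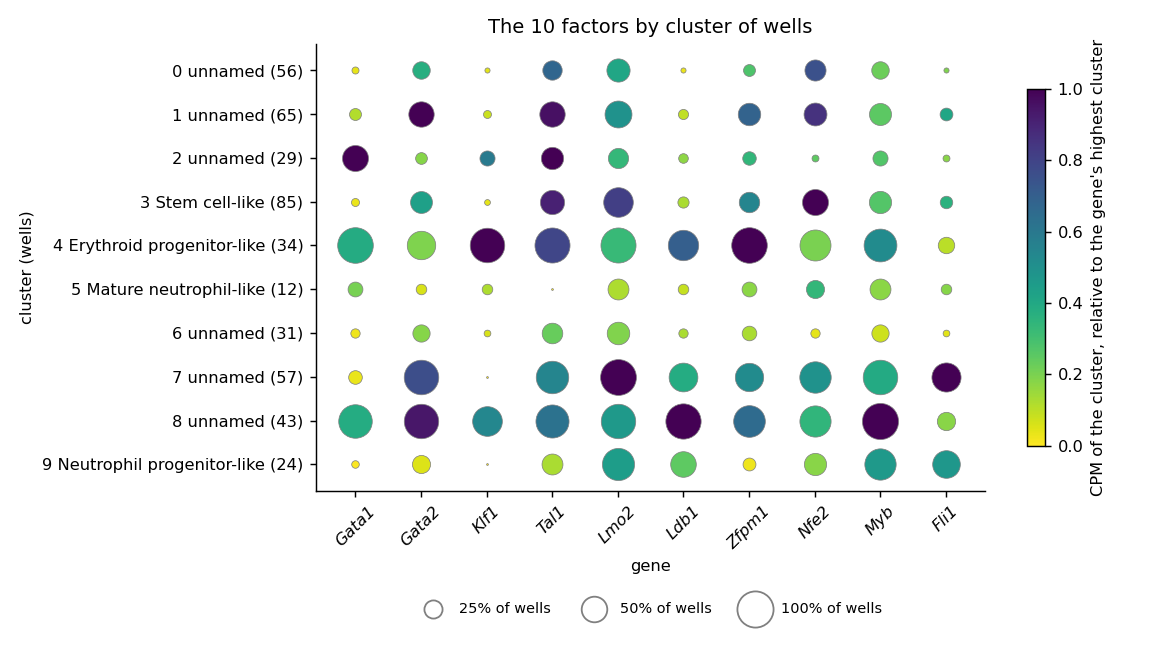
Clusters of wells (vertical axis, with the number of wells) against the 10 factors. Dot area gives the percentage of wells with the gene, and colour gives the level in CPM relative to the gene's highest cluster. Gata1 and Klf1 share clusters 4 and 8, Fli1 is highest in cluster 7, and Klf1 is at 0 in clusters 7 and 9.

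Within single plate2 wells at full depth, Klf1 was found almost only where Gata1 was found. Of 204 wells, Gata1 was detected in 86, Gata2 in 123 and Klf1 in 60. Gata1 was present in 55 of the 60 Klf1 wells (91.7%, exact 95% interval 81.6% to 97.2%). Klf1 was present in 55 of 86 wells with Gata1 (64.0%, exact 95% interval 52.9% to 74.0%) and in 5 of 118 wells without it (4.24%, exact 95% interval 1.39% to 9.61%). These intervals cover counting error only, and wells of a library are not replicates.

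At full depth the pattern held in each of the 4 plate2 libraries. Klf1 was in 13 of 26 Gata1 wells and 2 of 39 others in wild type plate2 library 1, and in 7 of 17 and 2 of 28 in wild type plate2 library 2. It was in 15 of 19 and 0 of 29 in heterozygous plate2 library 1, and in 20 of 24 and 1 of 22 in heterozygous plate2 library 2. With each well thinned to 5000 transcripts, a depth added after the values were seen, Klf1 was in 26 of 51 Gata1 wells (51.0%) and 9 of 97 others (9.28%), and Gata1 was in 26 of 35 Klf1 wells (74.3%). On the libraries' own barcodes it was in 53 of 75 (70.7%) and 4 of 111 (3.60%).

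Gata2 was spread more widely. It was found in 64 of 86 wells with Gata1 (74.4%) and in 59 of 118 wells without it (50%). It was the only one of the 3 genes in 57 wells, of which 42 lay in cluster 7. All 3 genes were found together in 45 wells, of which 26 lay in cluster 8 and 18 in the erythroid progenitor-like cluster, at a median of 20343 transcripts. None of the 3 was found in 56 wells, of which 17 were neutrophil progenitor-like. Thinned to 5000 transcripts, the share with Gata2 was 56.9% among wells with Gata1 and 51.5% among the others, so the gap in Gata2 was smaller at equal depth.

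Levels of the other factors differed along these classes. In the 45 wells with all 3 genes, Myb stood at 632 CPM, Ldb1 at 291 CPM and Fli1 at 10.5 CPM. In the 57 wells with Gata2 alone, Myb stood at 316 CPM, Ldb1 at 115 CPM, Fli1 at 115 CPM and Lmo2 at 681 CPM. The target Car1 stood at 2898 CPM in the former and 61.3 CPM in the latter. The 10 wells with Gata1 and Klf1 but no Gata2 had 1641 CPM of Car1, 4580 CPM of Car2 and 310 CPM of Zfpm1. Car2 stood at 1854 CPM in the 45 wells with all 3 genes, so Car1 and Car2 differed in opposite directions between these classes. Of the 12 wells with Gata1 alone, 8 lay off the library's own barcodes, and their median depth was 1269.5 transcripts.

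**Figure D4:**
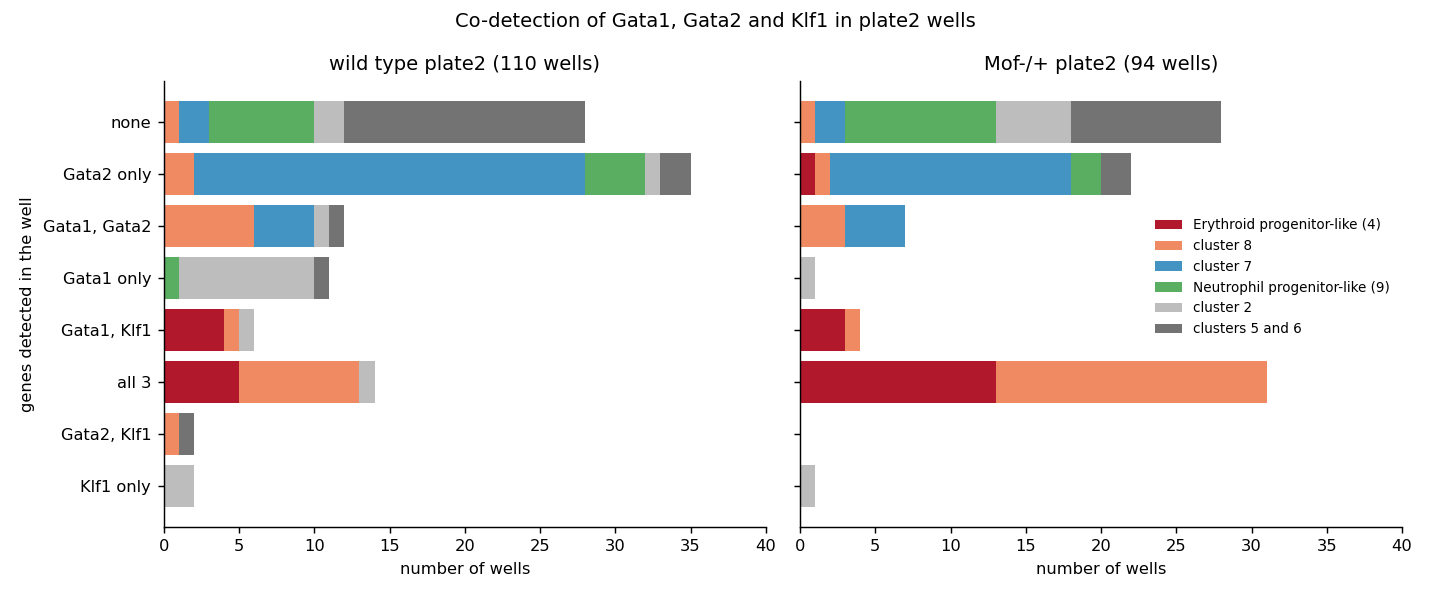
Number of plate2 wells (horizontal axes) by which of Gata1, Gata2 and Klf1 were detected, in wild type (left, 110 wells) and Mof -/+ (right, 94 wells), coloured by cluster. Wells with all 3 genes, 14 in wild type and 31 in Mof -/+, lie mostly in the erythroid progenitor-like cluster and cluster 8, and wells with Gata2 alone mostly in cluster 7.

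Co-detection was more frequent in heterozygous plate2 wells over all transcripts, and the gap in Klf1 among Gata1 wells was smaller in thinned wells. Klf1 was found in 20 of 43 Gata1 wells in wild type (46.5%, exact 95% interval 31.2% to 62.3%) and in 35 of 43 in heterozygotes (81.4%, exact 95% interval 66.6% to 91.6%). By library the shares were 50% and 41.2% for wild type plate2 and 78.9% and 83.3% for heterozygous plate2, so the genotypes did not overlap. All 3 genes were found in 14 of 110 wild type wells (12.7%) and in 31 of 94 heterozygous wells (33.0%). Gata1 wells had a median of 12384 transcripts in wild type and 19441 in heterozygotes, and 10 of the former and 1 of the latter lay off the library's own barcodes. By cluster, 12 of the wild type Gata1 wells were in cluster 2, 9 in the erythroid progenitor-like cluster and 15 in cluster 8, against 1, 16 and 22 of the heterozygous ones.

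Thinned to 1000 transcripts, Klf1 was found in 10 wild type and 6 heterozygous plate2 wells. It was found in 5 of 18 Gata1 wells in wild type (27.8%) and in 2 of 8 in heterozygotes (25%). A smaller share of Klf1 wells thus had Gata1 than at full depth. Gata2 was found in 5 of those 18 and 0 of those 8, and all 3 genes in 0.909% and 0% of wells. These counts are too small to rank the genotypes. Thinned to 5000 transcripts, a depth added after the values were seen, which left out 36 wild type and 20 heterozygous wells, Klf1 was found in 10 of 21 Gata1 wells in wild type (47.6%) and in 16 of 30 in heterozygotes (53.3%). All 3 genes were then found in 5.41% and 10.8% of wells. On own barcodes without thinning the shares of Klf1 among Gata1 wells were 54.5% and 83.3%. With 2 libraries against 2, an exact permutation test cannot reach 0.05, so no test is given.

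HSC wells held fewer of these genes. Of 232 wells, Gata2 was found in 82, Gata1 in 25 and Klf1 in 13, and Gata1 and Klf1 together in 7. None of the 3 was found in 131 wells. Gata2 was found in 20 of 96 wild type wells (20.8%) and in 62 of 136 heterozygous wells (45.6%), where heterozygous wells were also deeper. Thinned to 1000 transcripts these shares were 15.6% and 22.8%.

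Between genotypes, none of the 10 factors passed in either set. In HSC libraries, 4 differed at an unadjusted p under 0.05. Gata2 had a mean of 119 CPM in wild type and 258 CPM in heterozygotes, with a log2 change of 1.05 ± 0.39 (edgeR adjusted p = 0.35). Lmo2 had 1.06 ± 0.37 (edgeR adjusted p = 0.317), and Zfpm1 -0.89 ± 0.36 (edgeR adjusted p = 0.392). Fli1 was 3.33 times as high in heterozygotes, against 3 transcripts in wild type, with an exact 95% counting interval of 1.001 to 17.4 (edgeR adjusted p = 0.448). DESeq2 passed 0 of the 10 factors and 19 genes. Over all genes tested, 0.0149% passed, and 722 had an unadjusted p under 0.05. The libraries of the genotypes did not overlap for 5 of 10 factors, against 37.2% of all genes.

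One library decides part of these values. Without heterozygous HSC library 1, Lmo2 passed (edgeR adjusted p = 0.0404), and its log2 change ranged from 0.45 to 1.57 over the libraries left out. Klf1 and Gata1 changed between -3.73 and 0.32 and between -2.32 and -0.10, and Ldb1 between -1.76 and 2.07. The log2 change of Gata2 stayed between 1.07 and 1.13. Thinned to 1000 transcripts it was 0.60 ± 0.44.

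In plate2 libraries, Gata2 had a mean of 260.2 CPM in wild type and 166 CPM in heterozygotes, and its log2 change of -0.76 ± 0.28 did not pass (edgeR adjusted p = 0.666). Gata1 and Klf1, at 0.01 ± 0.36 and 0.14 ± 0.40, differed by less than the spread between libraries. The other 7 factors lay between -0.36 and 0.19. Gata2 was the 1 factor with an unadjusted p under 0.05, and DESeq2 passed 0 of the 10. Of all genes, 0.553% passed in plate2 libraries. The libraries did not overlap for 5 of 10 factors, against 43.8% of all genes. Over both sets the 10 factors lay between -0.34 and 0.34, none passed in edgeR or DESeq2, none had an unadjusted p under 0.05, and 0.135% of all genes passed in edgeR.

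The difference between the genotype effects of the 2 sets was largest for Fli1 and Gata2 among the 10 factors. For Gata2 it was -1.81 ± 0.48 (edgeR unadjusted p = 0.00103, adjusted p = 0.306), and over the libraries left out the adjusted p ranged from 0.132 to 0.794. No gene of 6690 passed this test in edgeR or DESeq2 (0.0% in both), and 602 had an unadjusted p under 0.05 in edgeR. The comparisons of sets and of genotypes share libraries, so their values are not independent of each other.

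**Figure D5:**
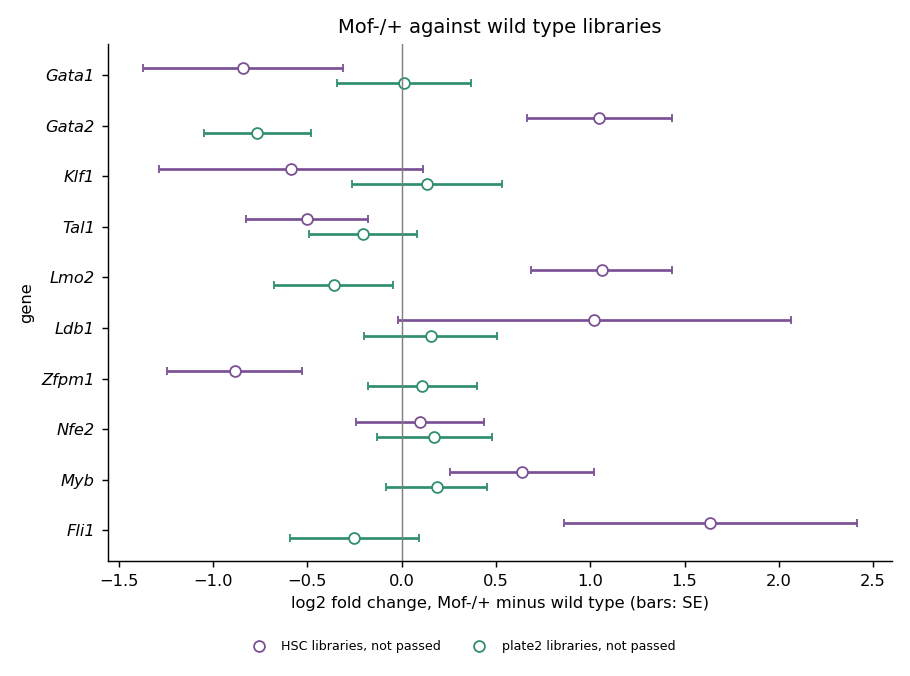
Log2 fold change from wild type to Mof -/+ (horizontal axis) of each factor in HSC libraries (purple) and plate2 libraries (green), with bars of 1 SE. All points are open because none passed an edgeR adjusted p of 0.05. Gata2 is at 1.05 in HSC libraries and at -0.76 in plate2 libraries.

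Partners and targets gave few calls by genotype. None of the 25 tested partners passed in either set, with Gfi1b and Erg at the smallest p in both. Of 26 targets, Pf4 passed in plate2 libraries, higher in heterozygotes by 2.58 ± 0.53 on the log2 scale (edgeR adjusted p = 0.0225), and over both sets by 2.42 ± 0.41 (edgeR adjusted p = 0.0109). Pf4 had 5.45 and 21.2 CPM in wild type plate2 libraries and 88.9 and 66.4 CPM in heterozygous ones. Hbb-bs, a beta globin, was lower in heterozygotes over both sets, by -3.49 ± 0.71 (edgeR adjusted p = 0.0417). It had 5128 CPM in wild type HSC library 1, the library with the high late erythroid markers, and 9.52 to 876 CPM in the other 7.

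Within erythroid progenitor-like plate2 wells, 9 in wild type and 17 in heterozygotes, no library reached the 10 wells set for a test, so values alone are given. Gata1 stood at 206 CPM in wild type and 164 CPM in heterozygotes, Klf1 at 252 and 181 CPM, and Gata2 at 67.4 and 101 CPM. Of the 10 factors, 4 were higher in heterozygotes, and without heterozygous plate2 library 1 this was 0. In a coarser clustering (Leiden resolution 0.5) the class held 27 wild type and 40 heterozygous plate2 wells. There Gata1 and Klf1 kept their order, and Gata2 stood at 280 CPM in wild type and 197 CPM in heterozygotes.

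The genes most like Gata1, Gata2 and Klf1 were sought over 169 plate2 wells of at least 2000 transcripts, among 8664 genes, by the Pearson correlation of log2(transcripts per 1000 + 1) centred within libraries. Wells share library and depth, and values are descriptions. Closest to Gata1 were Car1 (0.688), Aqp1 (0.67), Tnfaip2 (0.633), Gclm (0.633) and Abcb4 (0.601). Closest to Klf1 were Aqp1 (0.701), the red cell membrane gene Ermap (0.653), Car1 (0.65), the haem pathway gene Blvrb (0.618) and Abcb4 (0.616). Closest to Gata2 were Treml2 (0.533), Cbfa2t3 (0.506), Apoe (0.502), the thrombin receptor gene F2r (0.49) and Malat1 (0.468). Aqp1, Car1 and Abcb4 were thus on the lists of both Gata1 and Klf1, and none of the Gata2 list was.

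Among the 10 factors themselves, Gata1 correlated most with Klf1 (0.549), Ldb1 (0.516) and Myb (0.502). Klf1 and Gata2 gave -0.03. Fli1 gave -0.32 with Klf1 and -0.24 with Gata1, the lowest of all pairs, and 0.32 with Lmo2.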

How the data were processed

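Single-well CEL-Seq2 libraries were deposited as 8 tables of genes by 192 well barcodes. Values are expected counts that the authors deposited, which the values show to be molecular identifiers seen (k), corrected for collisions among 4096 possible ones by -ln(1 - k/4096) times 4096. The aligner BWA 0.6.2-r126 and the build mm10 stand here per the submitters' processing notes. The annotation was not given in the sources used here, nor was the counting tool.

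Expected counts were rounded, 70 spike-in rows were left out (0% of counts lay in rows naming no gene), barcodes with at least 1000 transcripts were kept as wells (436 of 1536), and counts were summed per library, since wells are not replicates. The 8 sums were tested with edgeR 4.0.16 (R 4.3.3, quasi-likelihood, TMM, filterByExpr, 1 mean per group), with Benjamini-Hochberg adjustment over 6690 genes, and the test was tried on simulated data. With 2 libraries per group the precision is limited. Wells were clustered with scanpy 1.11.5 (2000 variable genes without the 10 factors, 15 components, Leiden resolution 1). Intervals are exact (Clopper-Pearson) and cover counting error only. Libraries of a group varied by more than counting error. Their chi-square per degree of freedom over genes was 4.47 in wild type HSC, 3.34 in heterozygous HSC, 3.09 in wild type plate2 and 2.2 in heterozygous plate2 libraries. No doublet caller was run, as cells were sorted into wells. DESeq2 1.42.0, RLE scaling, no filter, other depths, own barcodes, a replicate block and leaving out libraries were alternatives.

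All 10 factors are named. List genes are named by smallest p, at most 3 per list and comparison, and other list genes that passed were added after their values were seen. The values of 1 list gene are not reported here. The factors and lists were chosen with earlier results of these data known. HSC replicate numbers did not pair libraries (r = -0.09 over 6690 genes).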

Additional observations from a re-analysis of the deposited data

Results flagged for a closer look

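Transcripts of the GATA factors and Klf1 lay on barcodes that a library did not use. Over the 4 plate2 libraries these were 29 transcripts of Gata1, 32 of Gata2 and 4 of Klf1. The comparisons of single wells on own barcodes leave them out. Libraries of both genotypes used the same barcodes, and transcripts passed between such libraries could not be seen and would stay in.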

How the results depend on the processing

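With wells thinned to 1000 transcripts, 5 of the 10 factors and 972 genes could be tested from HSC to plate2, and 1 factor passed in wild type and 1 in heterozygotes, among 297 and 226 genes. In heterozygotes 5 factors passed without erythroid progenitor-like HSC wells, a removal that partly sets the direction for Gata1 and Klf1. Without all such wells 5 passed. Leaving out 1 library gave 2 to 6 factors in wild type, 2 to 5 in heterozygotes, 0 to 1 for genotype in HSC libraries, 0 to 1 for the difference between sets, 0 to 0 for genotype in plate2 libraries and over both sets, and 0 to 6 higher in erythroid progenitor-like wells. That last count was 2 with 30 components. In the main clustering the erythroid progenitor-like class held 9 wild type and 17 heterozygous plate2 wells. It held 27 and 40 at Leiden resolution 0.5, and 23 and 39 with 30 components. Removals of such wells used the main clustering only. At Leiden resolution 2 no cluster took the erythroid name. RLE scaling, DESeq2, no filter and the block were not run within the class, since no library held 10 such wells in the main clustering.

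Changes of direction were found among changes that had not passed. Genotype in HSC libraries gave 1.25 and 1.20 for Klf1 without erythroid progenitor-like HSC wells and without all such wells, and 0.15 for Tal1 and -0.0003 for Nfe2 when thinned. In plate2 libraries Gata1 gave -0.0043 with all barcodes. From HSC to plate2 in wild type, Gata1 gave -0.37 and Klf1 -0.33 with wells of at least 2000 transcripts, Gata1 gave -0.10 on own barcodes, and Zfpm1 gave 0.047 without erythroid progenitor-like HSC wells. Over both sets Klf1 gave 0.053 with all barcodes, 0.19 without erythroid progenitor-like HSC wells and 0.74 without all such wells, and Fli1 gave -0.017 with at least 2000 transcripts. The difference between sets gave -1.12 and -0.51 for Klf1 without those wells, -0.57 (thinned) and -0.060 (without erythroid progenitor-like wells) for Tal1, and -0.50 (at least 2000 transcripts) and -0.053 (all barcodes) for Nfe2. The cause was not tested.

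Leaving out 1 library also turned some directions. For genotype in HSC libraries the ranges were -3.73 to 0.32 (Klf1), -1.76 to 2.07 (Ldb1) and -0.14 to 0.42 (Nfe2), and in plate2 libraries -0.19 to 0.29 (Gata1) and -0.026 to 0.29 (Klf1). Over both sets they were -0.28 to 0.28 (Gata2), -0.24 to 0.19 (Klf1), -0.077 to 0.48 (Lmo2) and -0.044 to 0.38 (Fli1). For the difference between sets they were -0.18 to 3.88 (Klf1), -1.90 to 1.93 (Ldb1), -0.23 to 0.33 (Nfe2) and -0.12 to 0.53 (Tal1). From HSC to plate2 they were -0.21 to 0.41 for Gata1 in wild type and -0.73 to 0.39 for Lmo2 in heterozygotes.

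Co-detection shares were lower at lower depth. In wild type plate2 wells thinned to 1000 transcripts, Klf1 among Gata1 wells was 27.8%, Gata2 among them 27.8% and all 3 genes 0.909%. All 3 genes stood at 6.36% with at least 2 transcripts each and 5.41% thinned to 5000. In heterozygous wells Klf1 among Gata1 wells was 25% at 1000 and 53.3% at 5000 transcripts. Gata2 among them was 0% at 1000, 60.0% at 5000 and 64.5% with at least 2 transcripts. All 3 genes were at 0% at 1000, 10.8% at 5000, 14.9% with at least 2 transcripts and 23.4% without erythroid progenitor-like wells. Over single libraries the wild type ranges were 41.2% to 50%, 57.7% to 64.7% and 12.3% to 13.3%, and the heterozygous ranges 78.9% to 83.3%, 87.5% to 89.5% and 29.2% to 37.0%.

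All-gene counts also moved: 1188 genes passed in wild type from HSC to plate2, with 570 to 1829 under settings other than thinning and 437 to 1373 leaving out a library. In heterozygotes 1482 passed, with 792 to 2002 and 488 to 1803. With the replicate block on HSC numbers, 6 factors passed in wild type and 4 in heterozygotes, with 0 for genotype in each set, over both sets and for the difference. The HSC numbers showed no pairing.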
